A study of Drosophila melanogaster with 15 samples.

Results

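The genes described here are the 69 genes of OSCs that were expressed in control cells and fell after depletion of L(3)mbt, out of 16727 genes listed. The genes were chosen by their levels in L(3)mbt KD and control. A gene was taken where its mean control level was at least 2 CPM (counts per 1000000 reads on genes of a library), its mean in L(3)mbt KD was at most 0.6 times the control mean, and all 3 L(3)mbt KD libraries lay below all 3 control libraries. l(3)mbt itself and genes whose symbols begin with Cpr, CR and a number, or mth were left out, which removed 18 of 87 genes. The fall of these genes in L(3)mbt KD is therefore the way in which they were chosen, and it is given as a description. Of the 8726 genes that passed the filter on low counts, 7175 had a mean control level of at least 2 CPM, and all 69 chosen genes were among those tested.

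OSCs are a single line of cultured somatic cells from the Drosophila ovary, which carry the follicle cell programme and the somatic part of the piRNA pathway and hold no germ cells. L(3)mbt is a chromatin protein with MBT repeats that keeps germline genes silent in somatic tissue, and Lint-O, the product of CG2662, is a protein that binds it. The genes are grouped here by the known roles of their products.

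Each condition had 3 RNA-seq libraries of OSCs taken 48 h after nucleofection with siRNA. The siRNA targeted l(3)mbt in L(3)mbt KD, lint-O in Lint-O KD, and EGFP, which served as the control, in the last condition. The labels do not say whether the libraries of a condition came from separate cultures. The paper states that 3 samples were prepared for each RNAi condition. It gives lint-O mRNA in the same 3 conditions as FPKM, a level from sequencing reads, with 3 biological replicates. The p-values measure the spread between these libraries. Changes were tested in the 9 libraries together with edgeR's quasi-likelihood test, and a change was called where the p adjusted by Benjamini-Hochberg over all genes tested was below 0.01.

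The libraries held 19139572 to 32274601 reads on genes. The level of l(3)mbt RNA was 73.0 to 81.5 CPM in L(3)mbt KD, against 120.5 to 137.9 CPM in control, so that 57.8% of the control mean remained. This is a level of RNA and not of protein. In the paper's western blots of OSCs, both bands of L(3)mbt were lost after its RNAi. The level of CG2662 was 3.46 to 3.83 CPM in Lint-O KD, against 20.5 to 21.1 CPM in control. The OSC markers tj, at a mean of 454 CPM, and piwi, at 1648 CPM, were abundant in L(3)mbt KD, and tj averaged 519.6 CPM and piwi 1418 CPM in control. Not all markers on the list were abundant. slbo and peb averaged 1.15 and 0.43 CPM in L(3)mbt KD and 1.07 and 0.69 CPM in control. Among 21 follicle cell and OSC markers tested, 6 were called higher and 2 lower in L(3)mbt KD, where 22.6% of all genes tested were higher and 15.9% lower. Of 18 germ cell markers tested, 14 were called higher in L(3)mbt KD, a comparison in which 22.6% of all genes tested were higher and 15.9% lower. vas averaged 379.7 CPM in L(3)mbt KD and 3.46 CPM in control, aub 104.9 and 10.7 CPM, and nos 19.4 and 0.118 CPM. Summed over the list, these markers ranged from 2808 to 3053 CPM in L(3)mbt KD and from 1907 to 2024 CPM in control, most of which was piwi in both conditions. Their part in the falls described here was not tested. The share of listed reads on no annotated gene was 2.93%, 3.09% and 4.14% in L(3)mbt KD, 7.38%, 6.30% and 4.43% in Lint-O KD, and 8.45%, 7.97% and 2.76% in control, so that L(3)mbt KD was below control replicates 1 and 2 but not below control replicate 3. The part of this difference in the falls was not tested. By the chi-square of gene counts per degree of freedom between libraries, L(3)mbt KD replicate 3 was at 12.1 and 16.7 from the others of its condition, which were at 4.74 from each other, and control replicate 3 was at 18.8 and 20.1, against 5.92 for the other controls. The same rule took 71 genes without L(3)mbt KD replicate 3 and 103 without control replicate 3, in place of 69.

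For the 69 genes, levels in L(3)mbt KD ranged from 14.3% to 59.8% of the control mean, with a median of 48.5%. The mean was at or below 50% of control for 36 genes and at or below 20% for 5. In edgeR's test 68 of the 69 genes were lower in L(3)mbt KD than in control, a comparison in which 15.9% of all genes tested were lower, and nothing is read from this count since the rule used the same libraries. The 3 L(3)mbt KD libraries resembled each other in this respect, with a median over the genes of 46.1%, 49.2% and 46.5% of the control mean. Control levels ranged from 2.08 to 1023 CPM, with a median of 15.3 CPM, against a median of 36.6 CPM for all genes tested. Just inside the ratio of 0.6 were lz, Map205 and wor, at 0.597, 0.597 and 0.598, and just outside it were zormin and CG10365, at 0.600 and 0.603. At the minimum level, CG45061, bou and CG13215 lay inside at 2.08, 2.16 and 2.30 CPM, and Cyp4d1, CG6225 and Hsp60C lay outside at 1.70, 1.76 and 1.93 CPM. A further 6 genes met the ratio and the level but had libraries that overlapped between the conditions.

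**Figure D1:**
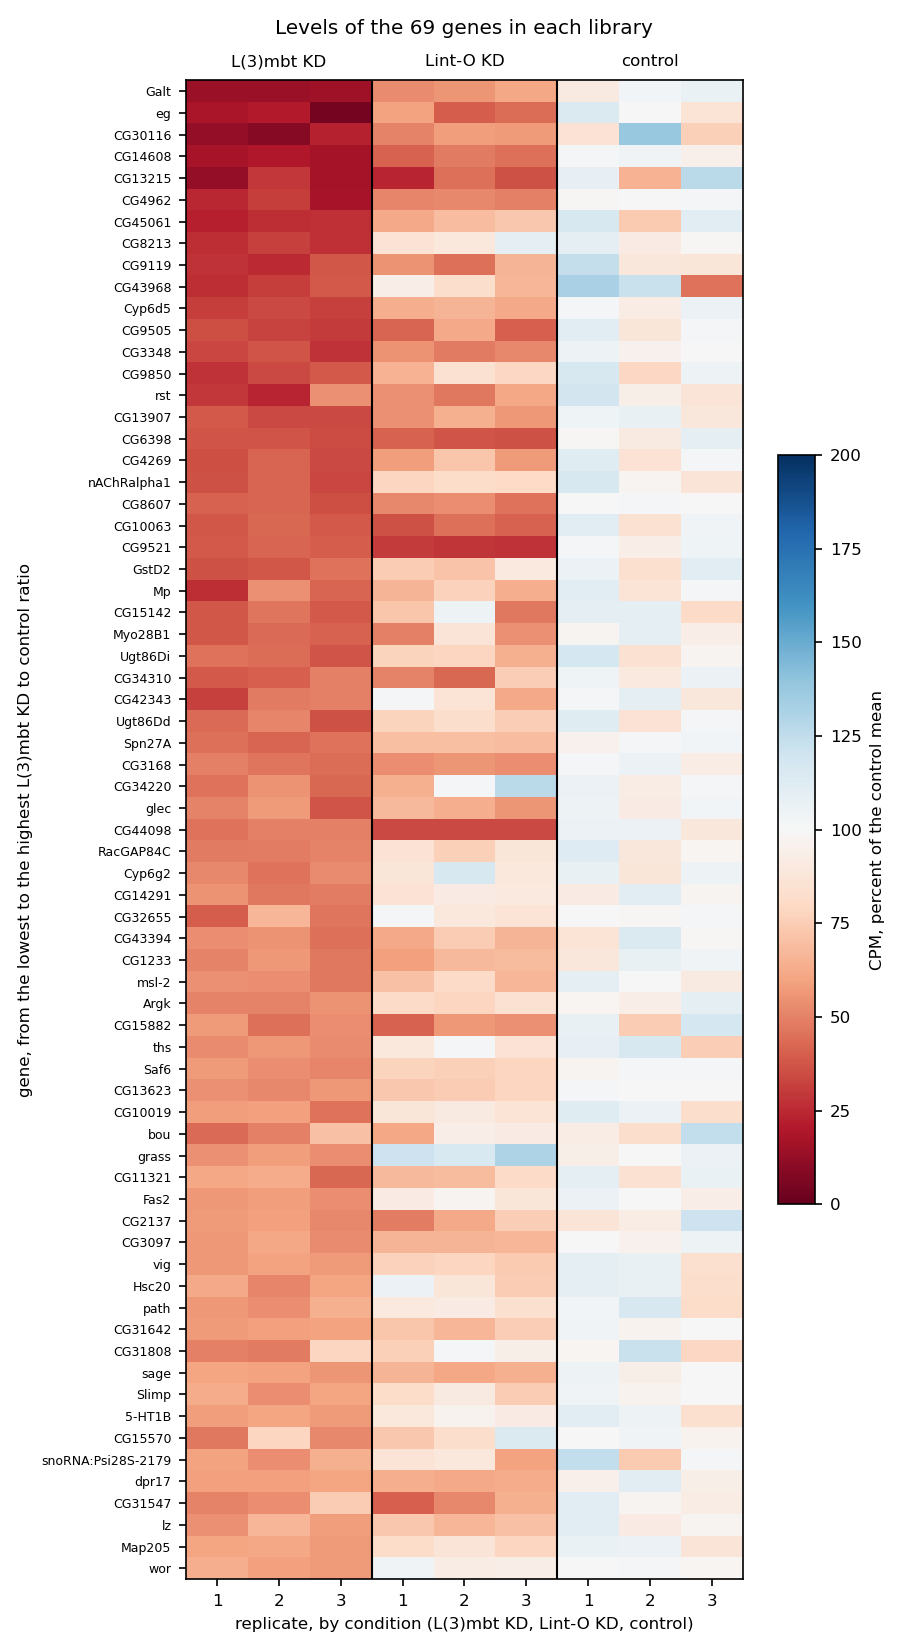
Level of each of the 69 genes (rows, ordered by the ratio of L(3)mbt KD to control) in each of the 9 libraries (columns, by condition), as CPM in percent of the control mean of that gene. Red is below and blue above the control mean. The L(3)mbt KD columns are red throughout, by the choice of genes. The Lint-O KD columns are paler in most rows, and grass is blue there. Control replicate 3 is red for CG43968.

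The sequences around the annotated starts of 8 of these genes are shown first, since they hold the motifs whose shares among promoters are described further on. Each stretch covers 150 bases before to 20 bases from the start of the gene, that is, its outermost start in RefSeq's annotation of genome Release 6 (dm6). The sequences read 5′ to 3′ on the strand of the gene. Capitals mark GAGAG, the core letters of the GAGA element, and TCAGT, the core letters of the Drosophila initiator, on either strand, so that CTCTC is GAGAG on the opposite strand. The first 4 sequences belong to genes with at least 4 copies of GAGAG in the 300-base window searched. The next are Spn27A and Cyp6d5, which have TCAGT near the start, beginning at base 12 and base 1 of the gene. The last are CG9521 and Galt, which are described for their levels.
CG3097 (chrX:5770761-5770930, minus strand): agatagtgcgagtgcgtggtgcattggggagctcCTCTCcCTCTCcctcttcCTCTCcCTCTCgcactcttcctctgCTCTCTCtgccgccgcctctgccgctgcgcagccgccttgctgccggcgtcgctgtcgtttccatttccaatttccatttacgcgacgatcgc
CG10019 (chr2L:3730316-3730485, plus strand): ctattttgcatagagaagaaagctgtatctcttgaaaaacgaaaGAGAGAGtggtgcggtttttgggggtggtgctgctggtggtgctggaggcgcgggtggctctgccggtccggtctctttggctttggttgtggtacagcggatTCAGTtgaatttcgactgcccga
Argk (chr3L:9066008-9066177, minus strand): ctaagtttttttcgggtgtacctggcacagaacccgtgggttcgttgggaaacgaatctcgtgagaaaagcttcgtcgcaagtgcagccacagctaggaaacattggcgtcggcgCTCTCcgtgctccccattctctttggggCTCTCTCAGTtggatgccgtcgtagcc
grass (chr3R:27157798-27157967, plus strand): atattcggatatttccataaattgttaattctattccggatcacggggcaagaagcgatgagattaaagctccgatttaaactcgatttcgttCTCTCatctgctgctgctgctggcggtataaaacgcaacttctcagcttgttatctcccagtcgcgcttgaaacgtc
Spn27A (chr2L:6673328-6673497, minus strand): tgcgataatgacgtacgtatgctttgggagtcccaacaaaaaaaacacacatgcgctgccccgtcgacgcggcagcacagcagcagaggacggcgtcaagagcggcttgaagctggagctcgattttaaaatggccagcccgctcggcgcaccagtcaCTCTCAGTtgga
Cyp6d5 (chr3R:14029078-14029247, plus strand): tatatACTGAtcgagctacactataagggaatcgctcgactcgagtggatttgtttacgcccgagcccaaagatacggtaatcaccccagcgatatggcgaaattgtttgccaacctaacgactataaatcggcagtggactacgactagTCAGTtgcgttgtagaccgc
CG9521 (chrX:14853250-14853419, minus strand): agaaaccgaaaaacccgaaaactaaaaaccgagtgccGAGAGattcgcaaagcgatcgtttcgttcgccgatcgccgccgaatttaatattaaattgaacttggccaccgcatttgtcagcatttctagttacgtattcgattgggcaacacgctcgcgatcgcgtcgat
Galt (chr2L:6668014-6668183, minus strand): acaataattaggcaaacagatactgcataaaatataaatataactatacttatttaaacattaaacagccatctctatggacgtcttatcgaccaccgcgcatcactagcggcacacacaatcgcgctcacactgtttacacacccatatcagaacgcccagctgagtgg

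Enzymes of metabolism and detoxification made up 10 of the 69 genes, at 14.3% to 56.2% of control in L(3)mbt KD. Galt, the galactose-1-phosphate uridylyltransferase of the Leloir pathway of galactose breakdown, had the lowest ratio of all. Galt was at 5.55, 5.71 and 6.34 CPM in L(3)mbt KD, at 21.6, 23.0 and 25.1 CPM in Lint-O KD and at 37.4, 42.3 and 43.8 CPM in control. The 3 conditions did not overlap. The log2 fold change was -2.86 ± 0.10 (SE) in L(3)mbt KD and -0.86 ± 0.08 in Lint-O KD, with an adjusted p of 3.0e-08 by edgeR for Lint-O KD. Cyp6d5, a cytochrome P450 of the family that oxidises xenobiotics and endogenous lipids, was the next most affected enzyme and was far more abundant. Its level was 101, 113 and 105 CPM in L(3)mbt KD, 209, 217 and 204 CPM in Lint-O KD, and 333, 305 and 348 CPM in control. Its Lint-O KD libraries lay between the other conditions without overlap. The log2 fold change of Cyp6d5 in Lint-O KD was -0.68 ± 0.06 (edgeR, adjusted p = 6.7e-09).

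CG9521 encodes a protein of the GMC oxidoreductase family, the family of glucose dehydrogenase. It had 109, 116 and 110 CPM in L(3)mbt KD, 84.2, 80.2 and 78.6 CPM in Lint-O KD, and 286, 262 and 291 CPM in control. Here the order of the knockdowns was turned round, with every L(3)mbt KD library above every Lint-O KD library. The log2 difference of L(3)mbt KD against Lint-O KD was 0.44 ± 0.06 (edgeR, adjusted p = 8.4e-06), and CG9521 was the only one of the 69 genes called higher in L(3)mbt KD than in Lint-O KD, in a comparison where 9.24% of all genes tested were. Argk, the arginine kinase that buffers ATP through phosphoarginine, was the most abundant of the 69 genes per exon length, at 292 RPKM (CPM divided by the exon length in kilobases) in control. Argk was at 518, 513 and 561 CPM in L(3)mbt KD, 826, 800 and 865 CPM in Lint-O KD, and 1000, 951 and 1118 CPM in control. All 3 conditions were again separate, and the log2 fold change in Lint-O KD was -0.33 ± 0.07 (edgeR, adjusted p = 0.00042).

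The detoxification enzymes GstD2, a glutathione S-transferase, and the UDP-glycosyltransferases Ugt86Di and Ugt86Dd were at 40.2%, 42.2% and 43.8% of control in L(3)mbt KD. Their levels in Lint-O KD were 78.9%, 73.7% and 78.4% of control, and none of them passed the test there. GstD2 had 12.1, 12.6 and 15.2 CPM in L(3)mbt KD, 24.6, 23.6 and 29.9 CPM in Lint-O KD, and 35.0, 27.6 and 36.4 CPM in control, so that Lint-O KD overlapped with control only. The call in Lint-O KD depended on the fit. With DESeq2 on all 9 libraries both GstD2 and Ugt86Dd were called lower, with an adjusted p of 0.0061 and 0.0084, as they were by edgeR without the filter on low counts (0.00057 and 0.00053). By edgeR GstD2 was also called with a replicate block (adjusted p = 0.0015), without control replicate 2 (0.0014) and without Lint-O KD replicate 3 (0.0062), and Ugt86Dd with only the libraries compared (0.0093), without control replicate 2 (0.0023) and without L(3)mbt KD replicate 2 or 3 (0.0057 and 0.0047). The second cytochrome P450, Cyp6g2, a gene studied for insecticide resistance, was at 50.2% of control in L(3)mbt KD and at 97.8% in Lint-O KD. Its log2 difference of L(3)mbt KD against Lint-O KD was -0.98 ± 0.16 (edgeR, adjusted p = 0.00011). CG14291, the sulfoglucosamine sulfohydrolase Sgsh of heparan sulfate breakdown, was at 50.5% of control in L(3)mbt KD and 89.4% in Lint-O KD. CG2137, the glycerophosphate oxidase Gpo2, was at 56.2% and 62.0%, and its call in Lint-O KD held in 5 of the 9 fits with a library left out, with an adjusted p of 0.0506 without control replicate 3 and 0.0551 without Lint-O KD replicate 1. With all 9 libraries that call was lost with DESeq2 (adjusted p = 0.0114) and, by edgeR, with library totals (0.0108), and it was lost with only the libraries compared (0.0154). Of the 10 enzymes, 5 fell in Lint-O KD, where 7.58% of all genes tested fell, and 8 were lower in L(3)mbt KD than in Lint-O KD, where 6.83% were. Both comparisons share libraries with the choice of genes.

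These enzymes were a minority of their families. Among 50 cytochrome P450 genes tested, 9 fell and 13 rose in L(3)mbt KD, which is near the 15.9% that fell and the 22.6% that rose among all genes tested, with a median log2 fold change of 0.17, against -0.02 over all genes tested. Among 27 glutathione S-transferase genes, 5 fell and 7 rose, with a median of 0.01. For 16 UDP-glycosyltransferase genes, the counts were 4 that fell and 6 that rose, with a median of 0.36. Paralogous copies of these families share sequence, so reads could have been split between them in the authors' counting.

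Extracellular proteases, protease inhibitors and matrix proteins made up 6 genes. CG8213 encodes filzig, a serine protease that shapes the matrix of the tracheal tubes. It was at 11.1, 13.2 and 11.4 CPM in L(3)mbt KD, 35.7, 37.4 and 45.9 CPM in Lint-O KD, and 46.0, 38.3 and 41.4 CPM in control. The fall was thus present in L(3)mbt KD, whereas Lint-O KD overlapped with control, at -0.11 ± 0.10 on the log2 scale (edgeR, adjusted p = 0.39). The log2 difference between the knockdowns was -1.76 ± 0.11 (adjusted p = 9.5e-10 by edgeR). grass, the protease that passes the signal of Gram-positive bacteria and fungi to the Toll pathway, had 19.7, 21.2 and 19.3 CPM in L(3)mbt KD, 43.8, 41.8 and 47.4 CPM in Lint-O KD, and 34.2, 36.3 and 38.5 CPM in control. Its Lint-O KD libraries all lay above the control libraries. It was the only one of the 69 genes called higher in Lint-O KD than in control, where 16.8% of all genes tested were, with a log2 fold change of 0.25 ± 0.07 and an adjusted p of 0.0099 by edgeR. With each library left out in turn, the adjusted p of grass ranged from 0.0084 to 0.0751 and passed the threshold in 2 of 9 fits, those without control replicate 3 and without L(3)mbt KD replicate 2. The share of all genes tested with all Lint-O KD libraries above all control libraries was 30.2%.

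Spn27A, the serpin that restrains the protease cascades of melanization and of Toll activation, was at 30.8, 28.7 and 31.1 CPM in L(3)mbt KD, 47.6, 47.6 and 47.1 CPM in Lint-O KD, and 64.9, 69.6 and 69.7 CPM in control. The conditions were separate, and the log2 fold change in Lint-O KD was -0.55 ± 0.06 (edgeR, adjusted p = 2.4e-07). CG9505, the neprilysin-like metallopeptidase Nepl4, had 1.52, 1.40 and 1.29 CPM in L(3)mbt KD, 1.79, 2.65 and 1.72 CPM in Lint-O KD, and 4.77, 3.76 and 4.34 CPM in control. Both knockdowns lay below control, at a log2 fold change of -1.09 ± 0.19 in Lint-O KD (edgeR, adjusted p = 0.00013). CG9850, the secreted ADAMTS-type metalloprotease sona, was at 33.4% of control in L(3)mbt KD and 76.5% in Lint-O KD. Mp, which encodes the collagen XV/XVIII homologue multiplexin, was at 40.7% and 68.7%. Neither sona nor Mp passed the test in Lint-O KD. By edgeR, sona passed it without control replicate 2 (adjusted p = 0.0097) and Mp without the filter on low counts (adjusted p = 0.0052). In the lists of whole pathways, 7 of 36 innate immunity genes tested fell and 18 rose in L(3)mbt KD, and 7 of 33 extracellular matrix genes fell and 16 rose, where 15.9% of all genes tested fell and 22.6% rose.

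Ligands, receptors, adhesion molecules and transporters made up 11 genes, at 35.6% to 59.7% of control in L(3)mbt KD and, in Lint-O KD, 52.2% to 92.4%. ths encodes thisbe, a fibroblast growth factor that signals through the receptor heartless. It had 28.8, 31.2 and 29.0 CPM in L(3)mbt KD, 49.3, 55.6 and 47.2 CPM in Lint-O KD, and 59.6, 63.9 and 41.6 CPM in control. Control replicate 3 was the lowest control and lay below all Lint-O KD libraries. The log2 fold change of ths in Lint-O KD was -0.14 ± 0.14 (edgeR, adjusted p = 0.47), and without control replicate 3 it was -0.33 (adjusted p = 0.0019), past the threshold. Fas2, the homophilic adhesion molecule fasciclin 2 of epithelia and axons, was at 114, 118 and 107 CPM in L(3)mbt KD, 185, 196 and 176 CPM in Lint-O KD, and 214, 202 and 189 CPM in control. L(3)mbt KD was apart from the other conditions, at a log2 difference of -0.74 ± 0.06 from Lint-O KD (edgeR, adjusted p = 3.7e-09), and Lint-O KD overlapped with control.

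The acetylcholine receptor subunit nAChRalpha1 was at 6.25, 7.33 and 5.82 CPM in L(3)mbt KD, 13.7, 14.2 and 13.9 CPM in Lint-O KD, and 20.1, 16.9 and 15.2 CPM in control. All Lint-O KD libraries were below control, but the adjusted p of 0.014 by edgeR missed the threshold, which it passed without control replicate 3 (0.0036), without L(3)mbt KD replicate 3 (0.0094) and without the filter on low counts (0.0023). The serotonin receptor 5-HT1B had 7.95 to 8.37 CPM in L(3)mbt KD, 12.3 to 13.3 CPM in Lint-O KD and 11.5 to 15.3 CPM in control. rst, the adhesion protein roughest that works with kirre in the fusion of myoblasts and the sorting of pupal eye cells, was low, at 0.77 to 1.74 CPM in L(3)mbt KD, 1.53 to 1.99 CPM in Lint-O KD and 2.82 to 3.83 CPM in control. dpr17 and CG42343, which encodes DIP-beta, belong to the interacting immunoglobulin families that label neurons and synapses. dpr17 had 47.3, 47.7 and 49.0 CPM in L(3)mbt KD, 51.0, 50.1 and 50.6 CPM in Lint-O KD, and 76.5, 88.99 and 75.8 CPM in control. It fell in both knockdowns, and the log2 difference of -0.10 ± 0.07 between them did not pass the test (edgeR, adjusted p = 0.29). CG42343 was at 43.0% of control in L(3)mbt KD and 83.3% in Lint-O KD.

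The remaining genes of this kind were bou, glec, path and CG31547. bou, a Ly6 protein needed for septate junctions, had 0.94 to 1.53 CPM in L(3)mbt KD, 1.33 to 2.02 CPM in Lint-O KD and 1.78 to 2.70 CPM in control. glec, the carbohydrate-binding adhesion protein gliolectin, was at 31.9, 36.5 and 23.4 CPM in L(3)mbt KD, 43.0, 40.3 and 35.5 CPM in Lint-O KD, and 66.9, 58.5 and 65.2 CPM in control. glec was also called lower in Lint-O KD, at -0.71 ± 0.14 on the log2 scale (edgeR, adjusted p = 0.0041). That call was lost without control replicate 1 or 3 and without any of the Lint-O KD libraries, with adjusted p up to 0.0209. path, an amino acid transporter that supports growth, was at 276, 259 and 315 CPM in L(3)mbt KD, 438, 448 and 408 CPM in Lint-O KD, and 500, 563 and 395 CPM in control. Its lowest control was replicate 3, and without that library path was called lower in Lint-O KD, with -0.35 on the log2 scale (edgeR, adjusted p = 0.0015). CG31547, the sodium potassium chloride cotransporter NKCC, was at 59.7% of control in L(3)mbt KD and at 52.2% in Lint-O KD. Over the whole lists, 2 of 55 cell adhesion molecules fell and 21 rose in L(3)mbt KD, both falls being rst and Fas2, and 2 of 47 ion channel genes fell and 23 rose. For cell-surface receptors the counts were 10 that fell and 15 that rose of 63, and for secreted signalling ligands 9 and 16 of 48. Among all genes tested 15.9% fell and 22.6% rose, and the receptors were near these shares.

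**Figure D2:**
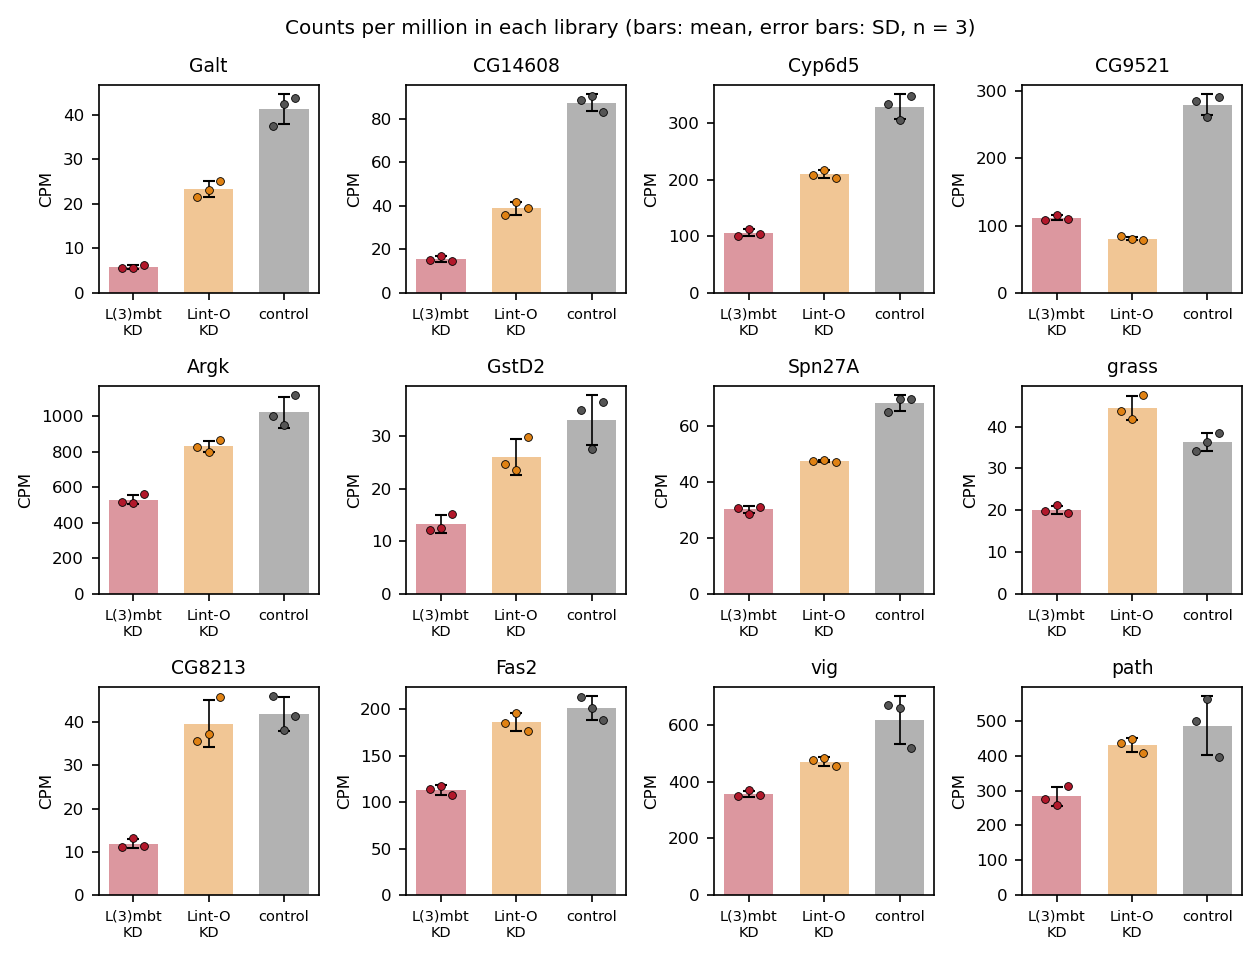
Level of 12 of the genes in CPM (vertical axes, each starting at 0) in L(3)mbt KD, Lint-O KD and control, with a point for each library, bars for the mean and error bars for the SD (n = 3). The Lint-O KD points lie between the other conditions for Galt, CG14608, Cyp6d5, Argk and Spn27A, below L(3)mbt KD for CG9521, above control for grass, and among or beside the control points for CG8213, Fas2 and path.

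Transcription factors and chromatin proteins made up 6 genes. eg, the nuclear receptor eagle that specifies serotonin neurons in the embryo, was at the low end of expression. It had 0.43, 0.50 and 0.10 CPM in L(3)mbt KD, 1.42, 0.94 and 1.04 CPM in Lint-O KD, and 2.72, 2.36 and 2.04 CPM in control. The 3 conditions did not overlap, and the log2 fold change in Lint-O KD was -1.07 ± 0.28 (edgeR, adjusted p = 0.0050). That call of eg was lost without control replicate 1 or 2 and without Lint-O KD replicate 2 or 3, with adjusted p up to 0.0331. lz, the Runx factor lozenge of crystal cells and of the eye, was at 5.86 to 7.20 CPM in L(3)mbt KD, 7.20 to 7.91 CPM in Lint-O KD and 9.93 to 12.0 CPM in control. lz also marks a class of hemocytes. Of 17 hemocyte markers, lz included, 8 could be tested. In L(3)mbt KD 4 of them were called higher and 2 lower, where 22.6% of all genes tested were higher and 15.9% lower. The summed level of the 17 markers was 183.9 to 188.6 CPM in L(3)mbt KD, 160.4 to 170.9 CPM in Lint-O KD and 116.8 to 119 CPM in control. The mean of crq was 91.1 CPM in L(3)mbt KD and 71.1 CPM in control, that of atilla 31.2 and 4.69 CPM, that of vkg 28.1 and 7.22 CPM, and that of Pxn 15.7 and 8.03 CPM. srp went the other way, at a mean of 11.6 CPM in L(3)mbt KD, 13.0 CPM in Lint-O KD and 15.2 CPM in control. Hml, NimC1, He, eater, PPO1 and PPO2 each averaged below 1 CPM in every condition, and NimC2 and NimB5 were at 0. The part of these markers in the level of lz was not tested. wor, the Snail family factor worniu of neuroblasts, had 6.31 to 6.96 CPM in L(3)mbt KD, 10.2 to 11.4 CPM in Lint-O KD and 10.8 to 11.2 CPM in control. Its log2 fold change in Lint-O KD was -0.08 ± 0.10 (edgeR, adjusted p = 0.58), whereas the difference of L(3)mbt KD from Lint-O KD was -0.72 ± 0.11 (adjusted p = 3.0e-05).

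sage, a bHLH factor of the salivary gland, was at 12.0 to 12.9 CPM in L(3)mbt KD, 13.1 to 14.03 CPM in Lint-O KD and 19.99 to 22.4 CPM in control. Both knockdowns were alike in direction, and the log2 difference between them was -0.14 ± 0.09 (edgeR, adjusted p = 0.27). msl-2, the subunit of the dosage compensation complex whose product is normally confined to males, was at 51.5% of control in L(3)mbt KD and 73.0% in Lint-O KD. Saf6, a subunit of the SAGA coactivator complex, had 164, 153 and 148 CPM in L(3)mbt KD, 223, 219 and 224 CPM in Lint-O KD, and 278, 290 and 291 CPM in control. These values separate all conditions, with a log2 fold change of -0.40 ± 0.05 in Lint-O KD (edgeR, adjusted p = 3.8e-06). Of the 6 genes, 5 fell in Lint-O KD, where 7.58% of all genes tested fell, in a comparison that shares the control libraries with the choice of genes. wor was the exception. In the list of developmental transcription factors as a whole, 10 of 60 fell and 10 rose in L(3)mbt KD, with a median log2 fold change of -0.07, so that the share that fell was near the 15.9% of all genes tested and the share that rose was below their 22.6%. Of 10 nuclear receptors eg fell and 1 other rose.

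Another 8 genes had other known roles. vig, the vasa intronic gene, encodes an RNA-binding protein found with RISC. vig was at 348, 370 and 353 CPM in L(3)mbt KD, 476, 483 and 454 CPM in Lint-O KD, and 670, 661 and 520 CPM in control. The conditions did not overlap, although control replicate 3 was at 78.2% of the mean of the other controls. Map205, a microtubule-associated protein, was at 59.7% of control in L(3)mbt KD and 82.4% in Lint-O KD, and Slimp, a mitochondrial seryl-tRNA synthetase paralogue, was at 58.9% and 82.3%. Both were called lower in Lint-O KD, but for Slimp the call held in 4 of the 9 fits with a library left out, with an adjusted p of up to 0.0548 without Lint-O KD replicate 3. The edgeR call of Slimp was also lost with library totals (adjusted p = 0.0197), with at least 10 counts in every library (0.0147), with the replicate block (0.0119) and, as that of Map205 (0.0107), with only the libraries compared (0.0106). Hsc20, a co-chaperone of iron-sulfur cluster assembly, was at 58.1% of control in L(3)mbt KD and 89.4% in Lint-O KD. RacGAP84C, a GTPase-activating protein for Rac, was at 49.3% and 83.1%, and Myo28B1, an unconventional myosin, at 40.9% and 63.6%. CG11321, the linear ubiquitin ligase LUBEL, was at 55.5% and 72.0% of control in L(3)mbt KD and Lint-O KD. snoRNA:Psi28S-2179, a guide RNA for pseudouridylation of 28S rRNA, had 1.89 to 2.27 CPM in L(3)mbt KD, 2.09 to 3.15 CPM in Lint-O KD and 2.60 to 4.37 CPM in control. It is short and lies in an intron of RpL22 on the same strand, so its level in poly-A selected libraries may include reads of its host.

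No role is given here for the other 28 genes, which were at 14.8% to 59.1% of control in L(3)mbt KD. Of these, 18 fell in Lint-O KD, against the same control libraries, where 7.58% of all genes tested fell. CG14608, named thawb, had 15.2, 17.1 and 14.8 CPM in L(3)mbt KD, 35.9, 41.9 and 39.1 CPM in Lint-O KD, and 88.5, 90.6 and 83.3 CPM in control. It was graded in the same order as Galt, with log2 fold changes of -2.54 ± 0.08 in L(3)mbt KD and -1.20 ± 0.07 in Lint-O KD (edgeR, adjusted p = 5.2e-12 for Lint-O KD). CG30116, CG13215 and CG45061 were among the genes with the lowest ratios, at 14.8%, 19.3% and 25.1% of control in L(3)mbt KD, but their control means were near the minimum level. CG30116, for example, had 0.31, 0.23 and 0.59 CPM in L(3)mbt KD, 1.29, 1.48 and 1.46 CPM in Lint-O KD, and 2.19, 3.52 and 1.95 CPM in control. CG4962 was at 1.49, 1.89 and 1.08 CPM in L(3)mbt KD, 3.12, 3.15 and 3.03 CPM in Lint-O KD, and 6.02, 6.07 and 6.23 CPM in control. Its Lint-O KD libraries lay between the other conditions, with -1.01 ± 0.17 on the log2 scale (edgeR, adjusted p = 5.2e-05). CG3348, one of the more abundant genes per exon length at 45.5 RPKM in control, was at 32.8% of control in L(3)mbt KD and 51.4% in Lint-O KD.

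CG43968 was the gene not called in L(3)mbt KD by edgeR. It had 11.1, 12.9 and 16.4 CPM in L(3)mbt KD, 39.4, 34.7 and 28.3 CPM in Lint-O KD, and 55.8, 51.7 and 19.2 CPM in control. Control replicate 3, at 35.7% of the mean of the other controls, was nearer to the L(3)mbt KD libraries than to its own group, and the adjusted p by edgeR was 0.018. DESeq2 on all 9 libraries called CG43968 lower in L(3)mbt KD, with -1.69 on the log2 scale (adjusted p = 0.00014). Without control replicate 3 CG43968 was called lower by edgeR in L(3)mbt KD, with -2.07 on the log2 scale (adjusted p = 8.9e-06), and in Lint-O KD, at -0.70 (adjusted p = 0.0093). Among the 69 genes, 10 (14.5%) had a level in control replicate 3 under 80% of the mean of the other controls, as did 11.2% of all genes tested. These genes included ths, path, vig, Hsc20 and 5-HT1B.

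A comparison of Lint-O KD with control asks how the same genes responded to depletion of the partner protein. In the paper's western blots, Lint-O protein was hardly seen after L(3)mbt depletion, while L(3)mbt protein changed little after Lint-O depletion. The knockdowns are thus not separate depletions of a single protein each. The level of l(3)mbt RNA in Lint-O KD was 136% of control. The comparison of Lint-O KD with control uses the 3 control libraries that took part in the choice of genes, so its counts are not independent of the choice. In Lint-O KD the 69 genes were at 29.0% to 122% of the control mean, with a median of 71.7%. Of the 69 genes, 38 (55.1%) were called lower in Lint-O KD than in control, where 7.58% of all genes tested were, and 46 had all 3 Lint-O KD libraries below all 3 control libraries, where 16.4% of all genes tested did. The median log2 fold change was -0.52 for the 69 genes and 0.01 for all genes tested. Per library, the median level was 67.2%, 74.3% and 68.3% of the control mean in Lint-O KD replicates 1 to 3. Without control replicate 3, 40 genes were called lower and the median log2 fold change was -0.57. The mean in Lint-O KD lay at 60% of control or less for 20 genes and at 90% or more for 11.

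The mean in Lint-O KD was between those of L(3)mbt KD and control for 64 genes. It was below L(3)mbt KD for CG9521, CG44098, CG31547 and CG15882, and above control for grass. The rule placed L(3)mbt KD well below control, which by itself favours a place in between for another condition. The share of all genes tested with this order was not computed, so nothing is read from the count. In the direct comparison, which shares the L(3)mbt KD libraries with the choice of genes, 40 genes were called lower in L(3)mbt KD than in Lint-O KD, where 6.83% of all genes tested were, and 53 had all L(3)mbt KD libraries below all Lint-O KD libraries, where 17.3% of all genes tested did. The median log2 difference was -0.67. With both comparisons, 18 genes fell in Lint-O KD and were lower still in L(3)mbt KD, among them Galt, CG14608, CG4962, Cyp6d5, Spn27A, Argk, Saf6 and vig. For 19 genes that fell in Lint-O KD, no difference between the knockdowns was called, and 21 genes were lower in L(3)mbt KD than in Lint-O KD with no call of Lint-O KD against control. Among these 21 genes were CG8213, Fas2, ths, wor, Cyp6g2, GstD2, path and nAChRalpha1. The call between the knockdowns was lost for ths when any one L(3)mbt KD or Lint-O KD library was left out, with an adjusted p by edgeR of up to 0.0245, and for path when control replicate 1, L(3)mbt KD replicate 1 or 2, or any one Lint-O KD library was left out, with up to 0.0272. The same call of path reached an adjusted p of 0.0418 by edgeR when replicate numbers entered as a block and 0.0124 without the filter on low counts. Neither call was made for 9 genes. The shares of all genes tested with these joint patterns were not computed, and both comparisons share libraries with the choice of genes.

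CG6398, CG10063 and CG44098 were the lowest in Lint-O KD after CG9521 among the genes above 5 CPM in control. CG6398 had 2.85, 2.83 and 2.65 CPM in L(3)mbt KD, 3.16, 2.88 and 2.82 CPM in Lint-O KD, and 7.62, 6.99 and 8.46 CPM in control. The log2 difference between the knockdowns was -0.12 ± 0.16 for CG6398 and -0.07 ± 0.15 for CG10063 (edgeR, adjusted p = 0.64 and 0.75). CG44098 had 4.03, 4.37 and 4.32 CPM in L(3)mbt KD, 2.96, 2.97 and 2.98 CPM in Lint-O KD, and 9.23, 9.25 and 7.75 CPM in control. Its Lint-O KD libraries all lay below the L(3)mbt KD libraries, but the log2 difference of 0.49 ± 0.15 missed the threshold (edgeR, adjusted p = 0.018).

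**Figure D3:**
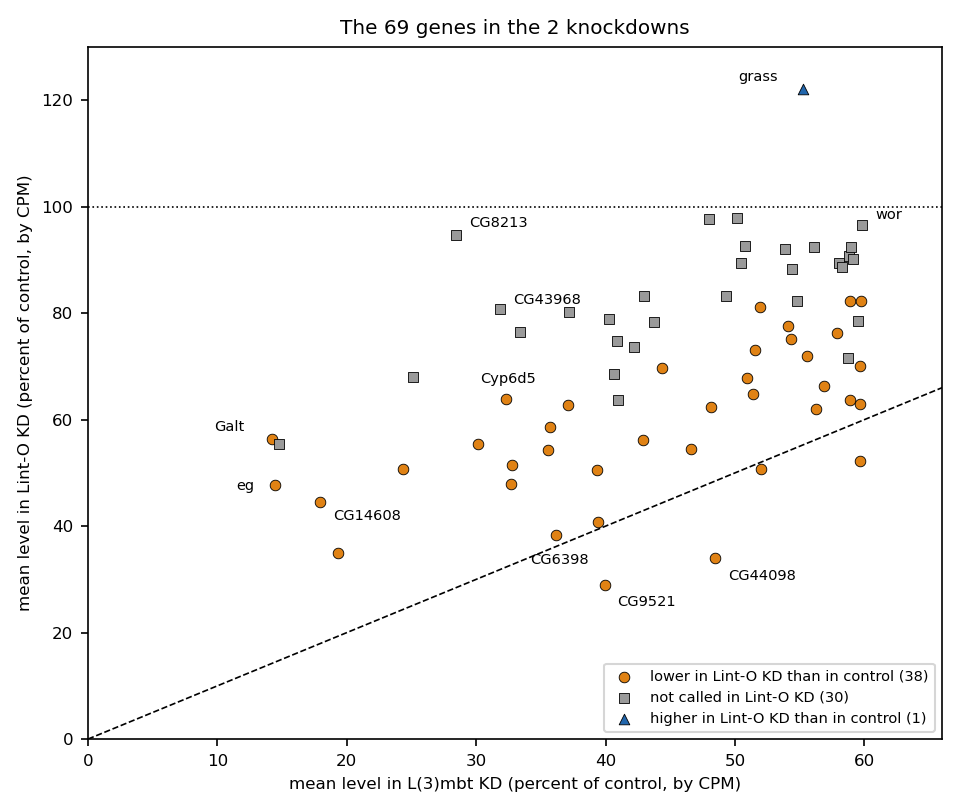
Mean level of the 69 genes in L(3)mbt KD (horizontal axis) and Lint-O KD (vertical axis), both as CPM in percent of the control mean, by the call of Lint-O KD against control. The dashed line marks equal levels in the knockdowns and the dotted line the control mean. Most points lie above the dashed and below the dotted line, CG9521 and CG44098 lie below the dashed line, and grass lies above the dotted line at 122%.

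Position in the genome did not enter the choice of genes, and the shares given here are descriptions without a test. RefSeq gave a position for all 69 genes. Of these, 17 (24.6%) lay wholly inside the span of another gene, against 7.34% of 8634 genes tested with a position. For 14 of them (20.3%) the surrounding gene was on the opposite strand, against 4.88%. They included Galt and Spn27A, which are both inside CG34310 and cup, Cyp6d5 in rdx, CG9521 in Flo2, vig in vas, rst in kirre, bou in ogre, CG32655 in Ten-a, RacGAP84C in rn and CG3097 in CG42699. Of the 13 genes on the opposite strand with a tested host, 2 had a host that was higher in L(3)mbt KD (15.4%, against 27.0% for the 355 such genes among all tested) and 2 had a host that was lower, CG34310 in both cases, against 51 of those 355. CG34310 is itself one of the 69 genes, so its fall was set by the choice of genes and nothing is read from it. The strand setting of the counting is not given in the sources used here. If strand was not used, intronic reads of a host would be counted with the gene inside it.

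vig and vas were the most unequal pair. vas, the germline RNA helicase, had 399, 399 and 340 CPM in L(3)mbt KD, 187, 183 and 176 CPM in Lint-O KD, and 3.12, 3.71 and 3.56 CPM in control, while vig, on the other strand of an intron of vas, was at 57.9% of control in L(3)mbt KD and 76.3% in Lint-O KD. The order of the conditions for vig was thus the reverse of that for vas. bou, inside ogre, formed another such pair, since ogre, an innexin of gap junctions, rose in L(3)mbt KD, by 0.75 ± 0.09 on the log2 scale (edgeR, adjusted p = 1.0e-06). Cyp6d5 and its host rdx differed in size of change, as rdx was at 132 ± 12.2 CPM in L(3)mbt KD and 139 ± 3.91 CPM in control (SD, n = 3) with no call. For kirre, which surrounds rst and encodes a partner of the same adhesion system, the log2 fold change of 1.26 ± 0.40 in L(3)mbt KD missed the threshold (edgeR, adjusted p = 0.012). kirre was barely expressed, at a mean of 0.77 CPM in L(3)mbt KD and 0.32 CPM in control.

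**Figure D4:**
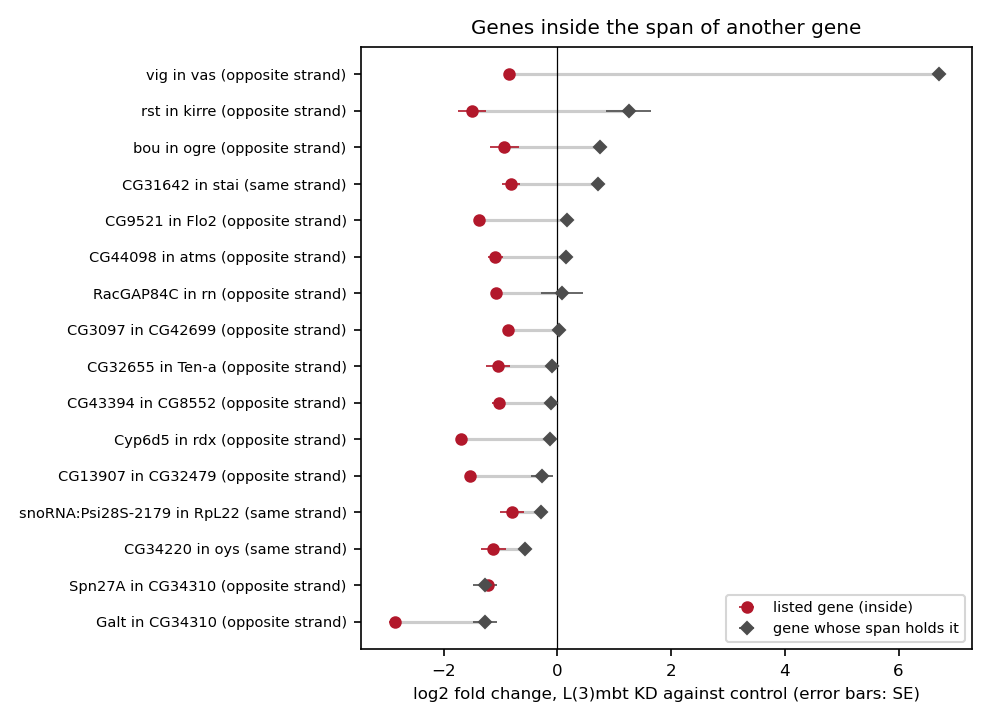
Log2 fold change in L(3)mbt KD against control (horizontal axis, error bars: SE of the fit) for 16 of the genes that lie inside another tested gene (circles) and for the surrounding gene (diamonds), with the strand of the inner gene relative to its host. The circles all lie below 0, by the choice of genes. The diamonds range from -1.27 for CG34310 to 6.72 for vas, and 8 of the 16 lie above 0.

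Galt, Spn27A and CG34310 were the only members adjacent to one another. They lie on chromosome 2L, with Galt at positions 6666264 to 6668033 and Spn27A at 6671065 to 6673347, both on the minus strand, 3031 bases apart and inside CG34310 on the plus strand. CG34310 had 1.56, 1.62 and 1.99 CPM in L(3)mbt KD, 2.04, 1.71 and 3.03 CPM in Lint-O KD, and 4.19, 3.61 and 4.25 CPM in control. Galt and Spn27A fell in both knockdowns. The counts of CG34310 were called lower in Lint-O KD, a call lost without Lint-O KD replicate 1 or 2, with adjusted p up to 0.0205. cup, the translational repressor, shares 4306 exon bases with CG34310 on the same strand and was listed at 0 in every library, so the value of CG34310 covers only the bases that the counting did not treat as shared, and neither gene's level can be read from it. On the X chromosome, Fas2 and CG15570 were 12076 bases apart with 2 other genes between them.

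The surroundings of the members were described in the same way, without a test. Within 1000 bases of a member, overlapping genes included, 7 of the 69 (10.1%) had a gene called higher in L(3)mbt KD, against 29.5% of 8633 genes tested, and 14 (20.3%) had a gene called lower, against 24.1%. For Galt, Spn27A and CG34310 the lower genes were themselves members, whose fall was set by the choice. The upregulated neighbours included vas beside vig, ogre beside bou, and CG13771 beside CG34310, which had a log2 fold change of 6.19. Members were found on X (14), 2L (15), 2R (10), 3L (12) and 3R (18), and none of them on chromosome 4, which held 85 genes tested (0.98%).

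Gene structure was compared likewise. The 68 protein-coding members had a median of 2344 exon bases, against 2135 for 8293 protein-coding genes tested, and a median span of 3673 against 2829 bases. Single-exon genes made up 11 of the 68 (16.2%), against 9.54%, and 28 (41.2%) still had a CG number as their current name, against 33.5%. Several members share exon bases with a gene on the opposite strand, and their counts are uncertain where strand was not used. The longest such stretches were 305 bases of CG31808 with Cyt-c-d, 291 of CG4269 with CG4294, 267 of CG6398 with CR44691 and 221 of CG44098 with atms.

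The sequences printed above came from a search of 300-base windows, 250 before to 50 after the annotated start of each protein-coding gene, for 13 motifs on both strands and for TATAA in the place of a TATA box. GAGAG, to which the GAGA factor Trl binds in open promoters, was in 34 of 68 members' windows (50%), against 29.0% of 8292 protein-coding genes tested and 29.7% of all 13742 such windows. At least 2 copies were in 17 windows (25.0%, against 10.9% of genes tested) and at least 4 in 7 (10.3%, against 3.77%). The most were 10 copies, overlapping ones counted, in the window of CG3097, whose printed stretch shows a run of CTCTC. CG10019 had 8 and CG13907 had 7. TCAGT, the initiator core, was in 43 windows (63.2%, against 47.7% of genes tested). On either strand, it lay within 25 bases of the annotated start in 23 (33.8%, against 18.9%), as in the printed stretches of Argk, Spn27A, Cyp6d5 and CG10019. That count includes genes such as wor, where only the opposite-strand letters ACTGA lie near the start, so it is not a count of initiators at starts. In Argk and Spn27A a GAGAG on the opposite strand runs directly into TCAGT, so that the letters overlap.

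The remaining motifs include elements of housekeeping promoters and sites of signalling factors. The DRE, TATCGATA, bound by DREF at promoters of housekeeping genes, was in 3 windows (4.41%, against 14.2%). CATTCC, bound by Scalloped, was in 3 (4.41%, against 10.3%), TATAAA in 27 (39.7%, against 44.6%) and AGATAA, the GATA element, in 16 (23.5%, against 18.1%). TATAA at the place of a TATA box, between 40 and 19 bases before the start, was in 6 windows (8.82%, against 5.11%). The E-boxes CACGTG and CAGCTG were in 2 and 16 windows (2.94% and 23.5%, against 4.49% and 20.9%), the STAT element TTCNNNGAA in 6 (8.82%, against 8.84%), the Maf half-site TGCTGAC in 4 (5.88%, against 3.16%) and the nuclear receptor half-site AAGGTCA in 1 (1.47%, against 2.06%). TGACTCA and TGACGTCA, the AP-1 and CRE elements, were in none of the 68, against 2.52% and 0.494%. The members' windows were richer in G and C, with a median of 44.2%, against 37.0% of bases, and the part of base composition in these shares was not tested. A match describes letters in a window around one annotated start and is not a bound site.

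**Figure D5:**
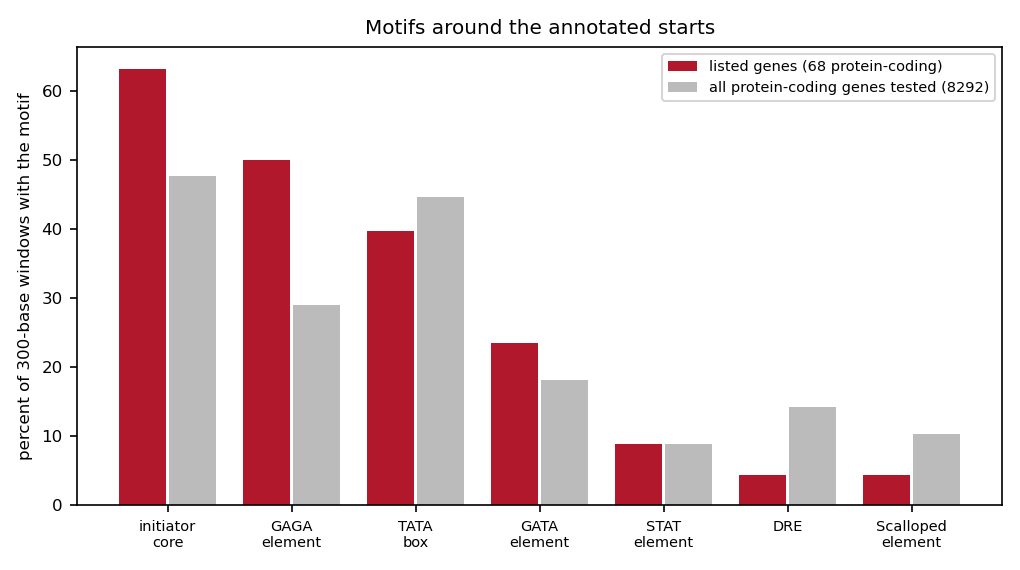
Share of 300-base windows around annotated starts that hold each motif (vertical axis, percent, starting at 0) for the 68 protein-coding members (red) and all 8292 protein-coding genes tested (grey). The red bars are higher for the initiator core (63.2% against 47.7%) and the GAGA element (50% against 29.0%) and lower for the DRE (4.41% against 14.2%) and the Scalloped element (4.41% against 10.3%).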

How the data were processed

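RNA-seq libraries of OSCs were prepared with the TruSeq Stranded mRNA kit after removal of rRNA with a Ribo-Zero kit and poly-A selection. The authors excluded reads on rRNAs and mapped the rest to dm6 with HISAT2, and the submitters' processing notes also name HTSeq. The authors deposited raw counts of reads per gene for 9 libraries, 3 per condition, grouped here by their labels. The counting annotation and strand setting are not given in the sources used here. Reads on no gene (2.76% to 8.45% of the reads listed) or ambiguous between genes (1.47% to 1.61%) entered neither library sizes nor tests.

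CPM were computed from the reads counted on genes (19139572 to 32274601 per library, so that 3 counts are 0.093 to 0.157 CPM, for counting error only), and RPKM from exon lengths. Fold changes came from edgeR 4.0.16 in R 4.3.3 (filterByExpr, TMM, robust glmQLFit and glmQLFTest, all 9 libraries, no replicate block), adjusted by Benjamini-Hochberg at an FDR of 0.01, the threshold of the paper, which used DESeq2. The fits were tested on simulated counts drawn with the spread fitted to these data. No simulated library deviated from its condition, so that test cannot show how the fits behave with such libraries. Of 16727 symbols, 16508 (98.7%) matched the RefSeq annotation of Release 6, from which positions and promoter sequences were taken.

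The members and gene lists were chosen with earlier results of these data known, and the grouping by role was made after the values were seen. Named genes were the 15 with the lowest ratio, the 8 highest by control RPKM, members in a gene list, the 6 lowest and 6 highest in Lint-O KD, those beside the thresholds and adjacent members, with some left out where nothing beyond a symbol was known. Other genes were named for their role or position. The alternatives were DESeq2 1.42.0, its size factors, library totals, other filters, only the libraries compared, the replicate block, an FDR of 0.05, other thresholds of the rule and each library left out. The ChIP-seq samples were not analysed here.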

Additional observations from a re-analysis of the deposited data

How the results depend on the processing

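Of the 69 genes, 68 were called lower in L(3)mbt KD, a count of 65 to 69 under the other fits and of 63 to 68 with a library left out. The 38 called lower in Lint-O KD were 34 to 45 under the other fits, 49 at an FDR of 0.05 and 31 to 42 with a library left out, and the 40 lower in L(3)mbt KD than in Lint-O KD were 38 to 47, 48 and 34 to 41. The count higher in Lint-O KD was 1 (grass) and became 0 with DESeq2, with its size factors, without the filter and with only the libraries compared, and 0 to 1 with a library left out. At an FDR of 0.05, 2 genes were higher in L(3)mbt KD than in Lint-O KD. Over all genes tested, the 661 lower in Lint-O KD than in control were 996 without the filter, where more genes are tested, 1204 at an FDR of 0.05 and 394 to 909 with a library left out. The 596 lower in L(3)mbt KD than in Lint-O KD were 1042 at an FDR of 0.05 and 340 to 787 with a library left out, and the 806 higher were 1238 at an FDR of 0.05. The rule took 36 genes at a ratio of 0.5, 143 at 0.7 and 66 to 103 with a library left out, the most without control replicate 3. With CPM scaled by TMM, as in the tests, it took 83 genes, which included all 69. It took 49 at a mean control level of at least 5 CPM and 75 where libraries could overlap. The median log2 fold change of the 69 genes in Lint-O KD stayed between -0.59 and -0.48 under every scaling, tool and left-out library tried. Directions changed only for values near 0 with a library left out. In Lint-O KD against control these were CG34220 (-0.32 to 0.15) and Cyp6g2 (-0.21 to 0.011). In L(3)mbt KD against Lint-O KD they were CG10063 (-0.16 to 0.0047), CG15882 (-0.12 to 0.12), CG2137 (-0.31 to 0.0024) and CG31547 (-0.018 to 0.37). The causes were not tested.

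Between L(3)mbt KD and control, deviations of same-numbered libraries correlated at -0.20 to -0.12, against -0.013 to 0.136 for libraries of different number. Between Lint-O KD and control the values were 0.06 to 0.15, against -0.102 to 0.044, so same-numbered libraries were slightly more alike there. With 3 libraries per condition, these values cannot decide whether the numbers pair the samples. With a replicate block, 68, 38 and 40 of the genes were called lower in L(3)mbt KD, in Lint-O KD and in L(3)mbt KD against Lint-O KD, of which 68, 36 and 38 were the same genes. Over all 8726 genes tested, 1573, 771 and 649 were called lower in these comparisons with the block, against 1391, 661 and 596 without it.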
